A study of Mus musculus with 24 samples.

Results

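The genes described here are 36 genes of mouse macrophages that rose with the cytokines interleukin-4 (IL-4) and IL-13, were low when tunicamycin was added, and kept at least most of their level with 3 other inhibitor treatments. They were chosen by their measured levels in the same 24 libraries that are described below, out of 56884 gene rows of the count table. Levels are given as CPM, the counts of a gene scaled to an equal total of gene counts per library. A gene was taken when its mean over 4 mice was at least 2 CPM with IL-4/IL-13, at least 2.5 times the naive mean plus 0.05, at most 0.5 times the IL-4/IL-13 mean with tunicamycin, and at least 0.8 times that mean in each of the 3 other inhibitor groups. The rule was met by 38 genes, and *Mrc1* and *Pdcd1lg2* were left out by name. The chain of choices ran from 10923 genes at the minimum level to 588 induced genes, of which 505 were at or under 0.5 times with tunicamycin. In contrast, 312 of the 588 were at or under 0.5 times in all 4 inhibitor groups, 3 were low with Sal003 and at 0.8 times or more in the other 3 inhibitor groups, and 0 were low in this way in either oligomycin group. Because the choice fixed the contrasts of IL-4/IL-13 with naive cells and of each inhibitor with IL-4/IL-13, these are given as levels and ratios with no test. Tests are given for 4 comparisons whose ratio the choice bounded but did not set, tunicamycin against naive and the 3 kept groups against each other.

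The libraries came from bone marrow–derived macrophages (BMDM), primary cells differentiated from marrow by M-CSF, of 4 wild-type C57BL/6J female mice aged 9 weeks, numbered 1, 2, 4 and 5. Each mouse gave 1 library in each of 6 groups, so every group holds 4 mice and the groups are matched by mouse. Naive cells received no cytokine, the IL-4/IL-13 group received 20 ng/mL of each cytokine for 24 h, and the 4 inhibitor groups received the same cytokines together with an inhibitor that was also given for 1 h beforehand. These were 5 µg/mL tunicamycin, 10 µM Sal003 and 1 µM oligomycin, the last in 2 groups. In addition, 1 of the oligomycin groups contained ISRIB at 1 µM, and titles and library names give it to opposite groups. They are therefore called by their column names, Oligo and Oli_ISR, and the choice between the readings was not made from any level measured here. All cells were cultured BMDM, there was no group with an inhibitor and no cytokine, and a vehicle control is not stated in the labels.

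IL-4 and IL-13 act through receptors that share the IL-4 receptor alpha chain, Janus kinases and the transcription factor STAT6, and drive macrophages into the state called alternative activation. Tunicamycin blocks the first step of N-linked glycosylation in the endoplasmic reticulum (ER), so that glycoproteins misfold and the unfolded protein response is switched on. Sal003 inhibits dephosphorylation of eIF2α, oligomycin blocks the mitochondrial ATP synthase, and ISRIB counteracts the effect of phosphorylated eIF2α on translation, so that these treatments bear on the integrated stress response (ISR) by different routes. Receptors, transporters and secreted proteins are made at the ER and many of them carry N-linked sugars.

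By their known products the 36 genes fell into 13 for membrane proteins, 9 for secreted proteins or proteins of the secretory pathway, 8 for intracellular signalling proteins, 3 for other proteins and 3 that do not code for protein. These classes were assigned after the members were known. Their shares among the other induced genes and among all genes tested were not counted, so the numbers only describe the members. The membrane class held the receptors and surface proteins *Anpep*, *Fcgr2b*, *Flrt2*, *Il11ra1*, *Il1rl2* and *Mrgpre*, the transport proteins *Slc7a2*, *Slc27a6*, *Atp6v0d2* and *Lrrc8b*, and *Tmem268*, *Tmem202* and *Tmem151a*. The secretory class held *Vwf*, *Angptl2*, *Adamtsl5*, *Oit3*, *Fam20c*, *Gask1b*, *Pla2g5*, *Cst7* and *Pcyox1l*. The signalling class held *Fyn*, *Cblb*, *Socs1*, *Dusp4*, *Bcar3*, *Gng11*, *Sbk2* and *Niban2*.

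Sequence upstream of the members was read from GRCm39, the genome build of the files, in the 250 bases before the start of each gene's canonical transcript in GENCODE release M39. It was searched on both strands for 5 motifs. A STAT6-type element spelled TTCNNNNGAA was in 1 of 36 windows (2.78%), against 5.42% of the 13632 windows of all genes tested. That gene was *Socs1*, whose product inhibits Janus kinases in cytokine signalling, and its window held 3 matches. The shorter STAT-type element TTCNNNGAA was in 4 windows (11.1%, against 6.48%), the AP-1-type element TGANTCA in 5 (13.9%, against 4.80%), the PU.1-type element GAGGAAG in 5 (13.9%, against 11.2%) and the ATF4-type element TGATGNAA in 3 (8.33%, against 2.38%). In 549 windows of the other induced genes the shares were 7.29% (TTCNNNNGAA), 6.19% (TTCNNNGAA), 6.01% (TGANTCA), 13.3% (GAGGAAG) and 1.82% (TGATGNAA). By their spelling TTCNNNNGAA and TTCNNNGAA share both ends and differ in spacing, and TGANTCA and TGATGNAA share their opening bases. With 36 windows each share rests on few genes, and a match in these letters is a description and not a bound site. At least 1 motif was in 16 of the 36 windows. The stretches below show the 3 matches before *Socs1* and examples of the shorter STAT-type and the AP-1-type element before members described further on. Each is written 5′ to 3′ on the strand of the gene, with the matches of the motif named on its line in capitals. The distance on each line runs from the end of the printed stretch to the start, not from the match. Relative to the start, the *Socs1* matches lie at -172 to -163, -120 to -111 and -88 to -79. The other matches lie at -133 to -125 (*Fam20c*), -222 to -214 (*Oit3*), -244 to -236 (*Flrt2*), -63 to -57 (*Atp6v0d2*) and -199 to -193 (*Dnmt3aos*).
Socs1, chr16:10603894-10604107, minus strand, 3 matches of TTCNNNNGAA, 18 bases before the start: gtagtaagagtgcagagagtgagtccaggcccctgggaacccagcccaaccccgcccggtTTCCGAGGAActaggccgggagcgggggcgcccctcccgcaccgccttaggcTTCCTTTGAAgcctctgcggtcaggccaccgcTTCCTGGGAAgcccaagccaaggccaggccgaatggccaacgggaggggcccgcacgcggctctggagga
Fam20c, chr5:138739980-138740108, plus strand, TTCNNNGAA, 64 bases before the start: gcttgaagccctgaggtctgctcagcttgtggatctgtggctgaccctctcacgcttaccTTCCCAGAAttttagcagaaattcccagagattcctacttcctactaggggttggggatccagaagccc
Oit3, chr10:59277856-59277952, minus strand, TTCNNNGAA, 153 bases before the start: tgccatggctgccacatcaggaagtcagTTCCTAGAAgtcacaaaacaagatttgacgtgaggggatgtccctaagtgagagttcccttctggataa
Flrt2, chr12:95661682-95661756, plus strand, TTCNNNGAA, 175 bases before the start: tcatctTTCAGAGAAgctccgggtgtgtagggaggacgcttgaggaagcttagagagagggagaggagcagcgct
Atp6v0d2, chr4:19922615-19922737, minus strand, TGANTCA, directly before the start: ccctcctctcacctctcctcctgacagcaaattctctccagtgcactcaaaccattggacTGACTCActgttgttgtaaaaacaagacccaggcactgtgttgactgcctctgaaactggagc
Dnmt3aos, chr12:3912377-3912494, minus strand, TGANTCA, 132 bases before the start: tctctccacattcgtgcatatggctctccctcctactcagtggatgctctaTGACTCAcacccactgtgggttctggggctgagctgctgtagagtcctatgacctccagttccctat
The *Socs1* stretch overlaps an exon of the long noncoding RNA *Gm61077* on the opposite strand. The *Flrt2* stretch also holds a PU.1-type match, left in lower case, and lies in an intron of a longer *Flrt2* transcript and the *Dnmt3aos* stretch inside the *Dnmt3a* gene, and the other 3 lie outside annotated genes.

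The 24 libraries held 16238727 to 26725278 counts on genes, with a median of 18999998. All 8 macrophage markers examined, among them *Adgre1*, *Csf1r* and *Cd68*, were detected, and their summed level was 12093 to 14013 CPM with IL-4/IL-13 and 17376 to 18774 CPM with tunicamycin. The single markers did not move together. *Adgre1* had means of 986 and 6928 CPM and *Lyz2* of 6033 and 8954 CPM in these groups, whereas *Csf1r* had 3764 and 852 CPM, *Cd68* 1241 and 499 CPM and *Mertk* 66.6 and 19.7 CPM. Markers of other cell types were low beside those of macrophages, and several moved with tunicamycin in the direction of the members. The 8 neutrophil markers summed to 24.4 to 43.9 CPM with IL-4/IL-13 and to 0.108 to 0.295 CPM with tunicamycin, the 5 stromal markers to 15.5 to 89.2 and 3.73 to 25.8 CPM, and the 5 dendritic cell markers to 8.99 to 9.98 and 1.62 to 2.40 CPM. The 5 B cell markers went the other way, from 1.04 to 2.19 CPM with IL-4/IL-13 to 2.44 to 3.35 CPM with tunicamycin. The 6 T cell markers overlapped, at 0.624 to 2.89 and 1.08 to 1.92 CPM. In naive cells macrophage markers summed to 32026 to 36534 CPM and neutrophil markers to 41.7 to 76.0 CPM. Stromal markers there summed to 18.8 to 143 CPM and dendritic cell markers to 6.65 to 11.4 CPM. With Sal003, where the members were kept, neutrophil markers summed to 4.83 to 8.03 CPM and stromal markers to 7.35 to 45.6 CPM. *Ncr1* and *Gzma* of natural killer cells were at 0 in every library. The part of these other cells in the levels of the 36 genes was not tested. Fewer cells of a type and less RNA per cell cannot be told apart in these bulk libraries.

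Across the 36 genes the IL-4/IL-13 mean was 2.58 to 53.9 times the naive mean plus 0.05 (median 4.22). With tunicamycin the level was 0.0092 to 0.482 times the IL-4/IL-13 level (median 0.214). It was at or under 0.1 times for 8 genes and at or under 0.25 times for 21. With Sal003 the ratio was 0.8004 to 2.59 (median 1.11) and was over 1 for 27 genes. It was 0.808 to 3.22 (median 1.21) in the Oligo columns, over 1 for 24 genes, and 0.863 to 2.32 (median 1.24) in the Oli_ISR columns, over 1 for 27 genes. The highest group mean was therefore not always that with IL-4/IL-13 alone, which held for 7 genes. It was in the Oligo columns for 13 genes, in the Oli_ISR columns for 11 and with Sal003 for 5. A ratio of at least 2 was found for 7 genes in the Oligo columns, for 4 in the Oli_ISR columns and for 3 with Sal003.

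**Figure D1:**
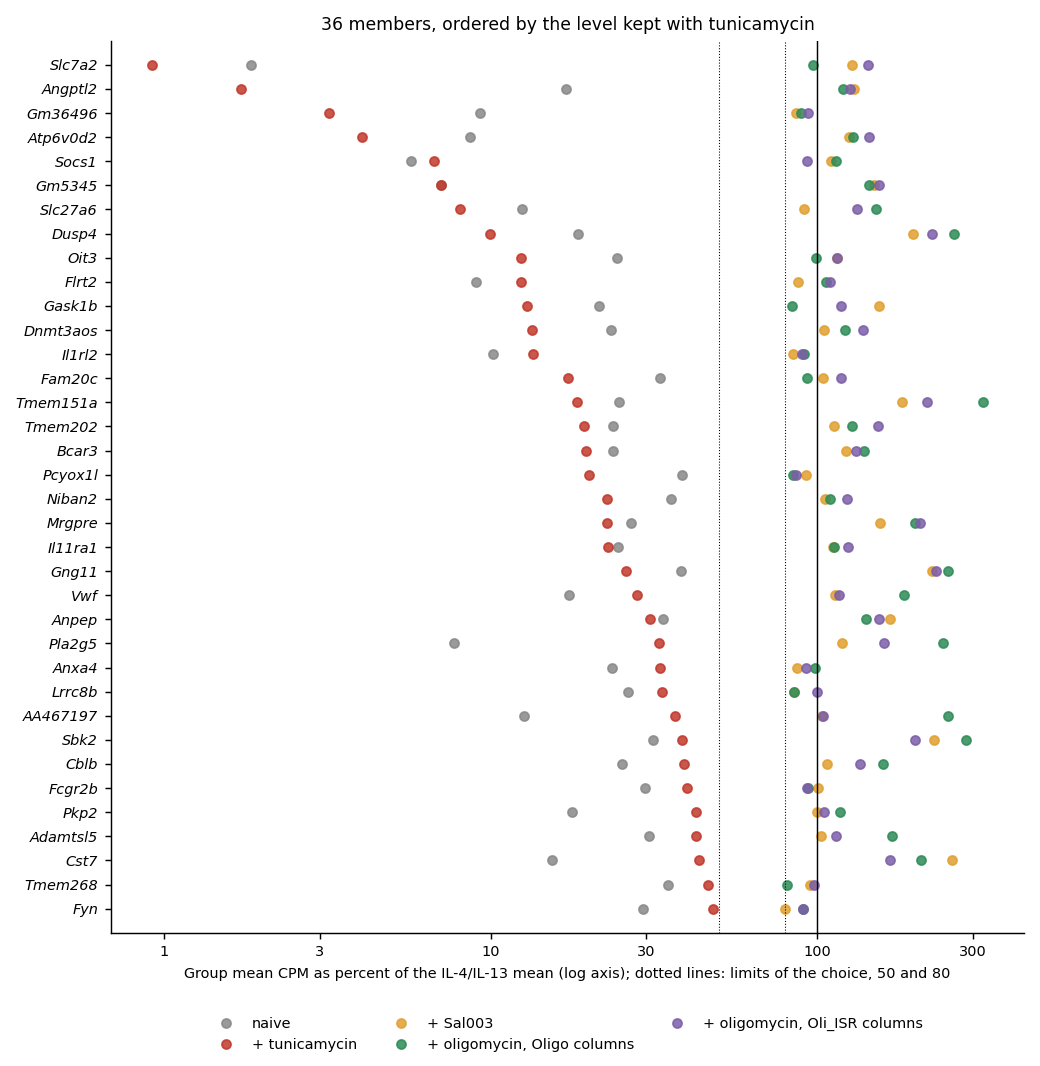
Group mean CPM (4 mice each) of the 36 genes as a percent of the IL-4/IL-13 mean, on a log axis, with 1 row per gene ordered by the level kept with tunicamycin and dotted lines at the limits used in the choice. *Slc7a2* stands at the low end with 0.92% and *Fyn* at the upper end with 48.2%, while the other 3 inhibitor groups lie at 80.04% or more by choice.

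Levels of different genes were compared per kilobase of exon, over all exons of a gene in the annotation. With IL-4/IL-13 the highest were *Anpep* at 279.8 CPM per kb, *Atp6v0d2* at 266, *Anxa4* at 256 and *Niban2* at 227, and the lowest was *Pkp2* at 0.298. With tunicamycin the same 4 genes were at 86.2, 10.8, 84.9 and 51.6 CPM per kb. *Atp6v0d2* thus went from the level of *Anpep* and *Anxa4* to well under both.

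With tunicamycin, 13 of the 36 genes were lower than in naive cells, 13 were higher and 10 passed the threshold in neither direction (edgeR quasi-likelihood test, Benjamini-Hochberg adjusted p under 0.05 over 13679 genes). Of all genes tested, 40.5% were called lower and 37.1% higher, so the members' shares of 36.1% in each direction were near the background. Their median log2 fold change was -0.16, against -0.05 over all genes tested. The other 550 induced genes had a median of -1.19, with 346 lower and 122 higher. Within these 550, the 312 genes that were low in all 4 inhibitor groups had a median of -1.73, with 251 lower and 15 higher. The choice held naive and tunicamycin levels of the members under fixed fractions of the IL-4/IL-13 level but did not set their ratio to each other. That ratio of group means ran from 0.101 for *Angptl2* to 4.23 for *Pla2g5*. The 4 naive and 4 tunicamycin libraries overlapped for 13 genes, all naive libraries were higher for 11 and all tunicamycin libraries were higher for 12. Overlap was not counted over all genes tested, so these numbers only describe the members. At least 2-fold, 5 genes were lower (*Angptl2*, *Gm36496*, *Atp6v0d2*, *Slc7a2* and *Oit3*) and 4 were higher (*Pla2g5*, *AA467197*, *Cst7* and *Pkp2*). The share of all genes tested at this limit was not computed. Some of these genes had few counts. Naive counts were 4, 5, 1 and 2 for *Pla2g5* and 15, 5, 9 and 11 for *Cst7*, and tunicamycin counts were 5, 10, 3 and 3 for *Gm36496*. By class, membrane proteins split into 2 lower, 4 higher and 7 not called, secretory proteins into 5, 4 and 0, signalling proteins into 4, 2 and 2, the 3 other proteins were all higher, and 2 of the 3 noncoding genes were lower.

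**Figure D2:**
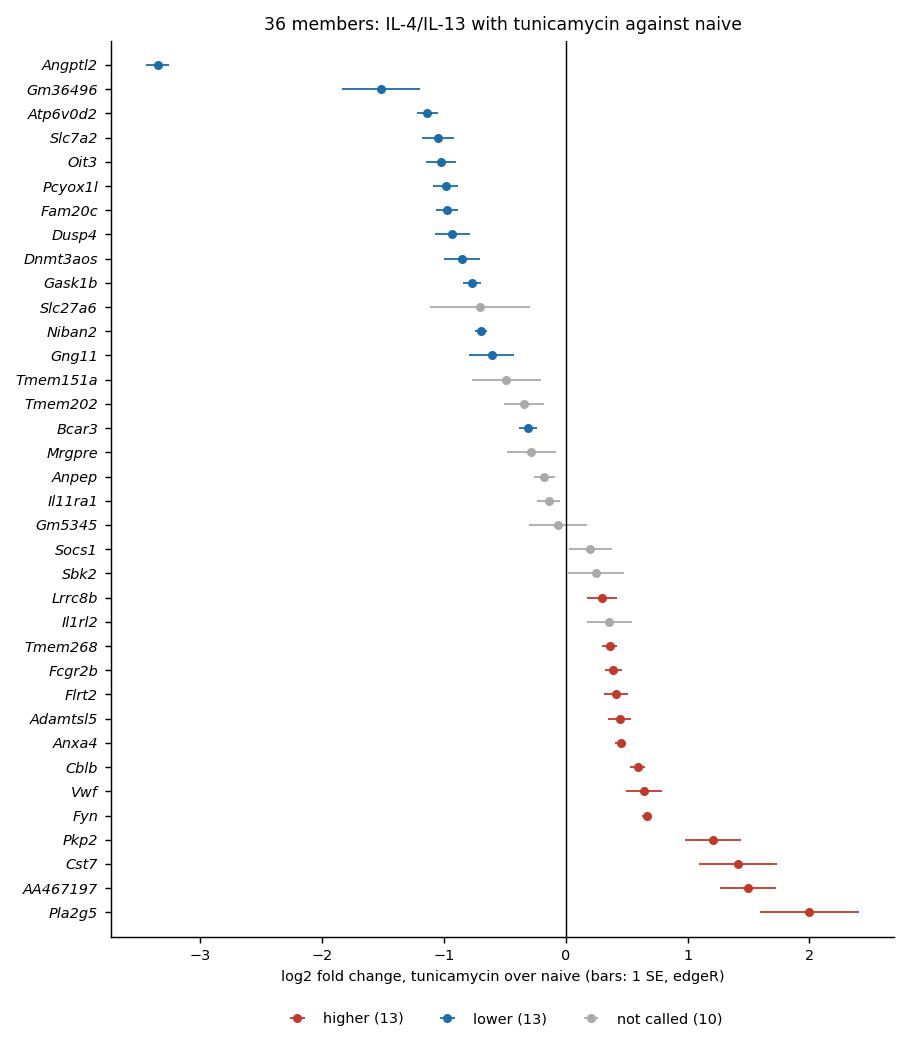
Log2 fold change of IL-4/IL-13 with tunicamycin over naive cells for the 36 genes (points, edgeR estimate over 4 mice per group; bars, 1 SE), coloured by call at an adjusted p of 0.05. The values run from -3.35 for *Angptl2* to 2.00 for *Pla2g5*, with 13 genes called on each side and 10 called on neither.

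In the following, values of single libraries are CPM in the order of mice 1, 2, 4 and 5, and log2 fold changes and their standard errors (SE) are from the edgeR fit. Adjusted p-values are Benjamini-Hochberg values of the quasi-likelihood test over all genes tested.

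The receptors and surface enzymes differed in where tunicamycin left them relative to naive cells. *Anpep* encodes aminopeptidase N (CD13), a glycosylated surface peptidase. Its levels were 378, 337, 449.9 and 402 in naive cells, 1134, 1107, 1309 and 1094 with IL-4/IL-13 and 376, 322, 406 and 327 with tunicamycin. They were 1922, 1915, 2046 and 1867 with Sal003, 1578, 1609, 1721 and 1655 in the Oligo columns and 1738, 1846, 1866 and 1739 in the Oli_ISR columns. The naive and tunicamycin libraries overlapped, with a log2 fold change of -0.17, SE 0.08, edgeR adjusted p = 0.058, and this difference passed the threshold with mouse as a replicate block (adjusted p = 0.00563), with upper-quartile scaling (0.0069) and with a minimum of 10 counts (0.0262). All libraries of the 3 kept groups were above all IL-4/IL-13 libraries. *Anpep* was lower in the Oligo than in the Oli_ISR columns (-0.25, SE 0.08, edgeR adjusted p = 0.017) and higher with Sal003 than in the Oligo columns (0.38, SE 0.08, edgeR adjusted p = 0.00038). The call between the oligomycin groups was lost without mouse 1, 2 or 5 (adjusted p = 0.108, 0.0823 and 0.0545) and without scaling (0.162).

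*Fcgr2b* encodes the inhibitory Fc gamma receptor of macrophages. Libraries stood at 143, 118, 128 and 111 in naive cells, 415, 413, 451 and 401 with IL-4/IL-13 and 167, 178, 163 and 166 with tunicamycin. The kept groups stood at 408, 425, 447 and 411 with Sal003, 389, 404, 417 and 364 in the Oligo columns and 376, 404, 422 and 363 in the Oli_ISR columns. Every tunicamycin library was above every naive library (0.39, SE 0.07, edgeR adjusted p = 1.5e-05), and the libraries of the 3 kept groups overlapped each other and the IL-4/IL-13 group. Sal003 was higher than the Oligo columns (0.24, SE 0.07, edgeR adjusted p = 0.0038), a call that was lost without scaling (adjusted p = 0.177). Of its 31-base words, 21.3% also occur in transcripts of other genes, so that its counts are less certain.

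*Flrt2* encodes a membrane protein with leucine-rich repeats that binds Unc5 and latrophilin receptors. Its libraries gave 17.9, 11.4, 17.6 and 18.7 in naive cells, 170.0, 179, 184 and 191 with IL-4/IL-13 and 22.9, 22.5, 25.2 and 19.5 with tunicamycin. With the other inhibitors they gave 159, 165, 152 and 159 (Sal003), 189, 204, 190.4 and 191 (Oligo columns) and 198, 218, 188 and 191 (Oli_ISR columns). All tunicamycin libraries were above all naive libraries (0.41, SE 0.10, edgeR adjusted p = 0.00065). Sal003 was lower than the Oli_ISR columns (-0.30, SE 0.08, edgeR adjusted p = 0.011), a call that was lost without mouse 1 (adjusted p = 0.0978).

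*Il11ra1* encodes the ligand-binding chain of the interleukin-11 receptor. Because 55.2% of its 31-base words are shared with other genes, led by its copies *Il11ra3* and *Il11ra2*, its counts are uncertain. The libraries held 21.1, 27.4, 20.9 and 19.9 in naive cells, 91.5, 86.8, 97.4 and 88.5 with IL-4/IL-13 and 21.1, 21.1, 20.3 and 21.0 with tunicamycin. They held 114, 93.9, 108 and 93.0 with Sal003, 104, 98.9, 108 and 99.7 in the Oligo columns and 123, 103, 119 and 107 in the Oli_ISR columns. Naive and tunicamycin libraries overlapped (-0.14, SE 0.10, edgeR adjusted p = 0.19). The other receptors were at lower levels. *Il1rl2*, the receptor for IL-36, had group means of 1.32 ± 0.322 CPM (SD, n = 4) in naive cells, 12.9 ± 1.31 with IL-4/IL-13 and 1.75 ± 0.252 with tunicamycin. *Mrgpre*, a G protein–coupled receptor, had 3.17 ± 0.329, 11.7 ± 0.923 and 2.68 ± 0.352 CPM in the same groups. Neither was called between tunicamycin and naive cells (adjusted p = 0.083 and 0.2).

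Among the transport genes was *Slc7a2*, the member with the lowest share of the induced level left with tunicamycin. It encodes the cationic amino acid transporter CAT2, which carries arginine into macrophages. It was at 6.99, 4.95, 7.87 and 5.91 CPM in naive cells, 346, 355, 366 and 329 with IL-4/IL-13 and 3.13, 3.20, 3.54 and 2.98 with tunicamycin. The kept groups were at 464, 472, 395 and 452 (Sal003), 336, 358, 314 and 351 (Oligo columns) and 489, 549, 463 and 494 (Oli_ISR columns). All naive libraries were above all tunicamycin libraries (-1.05, SE 0.13, edgeR adjusted p = 7.1e-08). Every library of the Oligo columns was below every library of the Sal003 and Oli_ISR groups, with a log2 fold change of -0.67, SE 0.07, edgeR adjusted p = 3e-08 against the Oli_ISR columns and of 0.53, SE 0.07, edgeR adjusted p = 7.5e-07 for Sal003 against the Oligo columns.

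*Atp6v0d2* encodes a subunit of the membrane part of the vacuolar proton pump. Its libraries read 54.1, 59.4, 67.9 and 68.5 CPM in naive cells, 713, 724, 730.3 and 731 with IL-4/IL-13 and 32.8, 23.6, 33.1 and 27.8 with tunicamycin. They read 924, 895, 962 and 863 with Sal003, 922, 921, 966 and 914 in the Oligo columns and 1059.6, 990.0, 1134 and 998 in the Oli_ISR columns. All tunicamycin libraries were below all naive libraries (-1.14, SE 0.09, edgeR adjusted p = 1.5e-11), and all libraries of the 3 kept groups were above all IL-4/IL-13 libraries. The Oligo columns were lower than the Oli_ISR columns (-0.28, SE 0.08, edgeR adjusted p = 0.0048, and 0.0664 without scaling). The difference of Sal003 from the Oli_ISR columns was -0.18, SE 0.08, edgeR adjusted p = 0.13, and it was called with mouse as a replicate block (adjusted p = 0.05 after rounding up). *Lrrc8b*, a subunit of volume-regulated anion channels, had a mean of 55.7 ± 1.96 CPM (SD, n = 4) with IL-4/IL-13, 18.7 ± 0.848 with tunicamycin and 14.7 ± 3.22 in naive cells. Its rise over naive cells was 0.30, SE 0.12, edgeR adjusted p = 0.028 and was not called without mouse 1, 2 or 4 (adjusted p = 0.056, 0.0919 and 0.0627). *Slc27a6*, a fatty acid transport protein, had 0.738 ± 0.268, 5.93 ± 0.756 and 0.479 ± 0.253 CPM in naive, IL-4/IL-13 and tunicamycin cells, with no call between the first and the last (adjusted p = 0.12).

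Among the secretory genes, *Angptl2* showed the largest fall under the naive level of the 36. It encodes angiopoietin-like protein 2, a secreted glycoprotein. Values were 34.6, 28.9, 36.8 and 30.3 CPM in naive cells, 185, 196, 200.3 and 188 with IL-4/IL-13 and 3.40, 3.00, 3.37 and 3.46 with tunicamycin. With the remaining inhibitors they were 264, 256, 261 and 221 (Sal003), 234, 235, 222 and 234 (Oligo columns) and 248, 246, 248 and 227 (Oli_ISR columns). The 4 tunicamycin libraries lay far below all naive libraries, with a fitted level 10.2-fold lower (-3.35, SE 0.09, edgeR adjusted p = 1.8e-20). The 3 kept groups were all above the IL-4/IL-13 libraries.

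*Fam20c* encodes a kinase of the Golgi that phosphorylates secreted proteins. Its CPM were 213, 204, 256 and 229 in naive cells, 671, 658, 739 and 669 with IL-4/IL-13 and 138, 109, 121 and 105 with tunicamycin. In the kept groups they were 745, 688, 784 and 638 (Sal003), 658, 622, 641 and 623 (Oligo columns) and 905, 738, 872 and 735 (Oli_ISR columns). All tunicamycin libraries were below all naive libraries (-0.98, SE 0.09, edgeR adjusted p = 5.2e-10), and the Oligo columns were lower than the Oli_ISR columns (-0.47, SE 0.09, edgeR adjusted p = 0.00011). *Gask1b*, a related Golgi-associated protein, gave 20.3, 19.6, 23.1 and 24.9 CPM in naive cells, 102, 103, 102 and 103 with IL-4/IL-13 and 13.9, 11.3, 13.1 and 14.9 with tunicamycin. It gave 151, 163, 152 and 172 with Sal003, 84.8, 89.2, 84.3 and 86.5 in the Oligo columns and 120.5, 125, 118 and 121 in the Oli_ISR columns. The 3 kept groups of *Gask1b* did not overlap each other. Sal003 was higher than the Oligo columns (1.02, SE 0.06, edgeR adjusted p = 3.8e-13) and than the Oli_ISR columns (0.42, SE 0.06, edgeR adjusted p = 1.3e-05), and the Oligo columns were lower than the Oli_ISR columns (-0.61, SE 0.06, edgeR adjusted p = 9.2e-09). *Gask1b* was also lower with tunicamycin than in naive cells (-0.77, SE 0.07, edgeR adjusted p = 8.1e-10).

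*Vwf* encodes von Willebrand factor, a large multimeric glycoprotein best known from endothelial cells and platelets. Libraries were at 34.1, 27.7, 42.3 and 40.4 CPM in naive cells, 216, 187, 236 and 193 with IL-4/IL-13 and 63.7, 49.5, 65.0 and 55.2 with tunicamycin. They were at 239.9, 231, 277 and 198 with Sal003, 373, 366, 421 and 373 in the Oligo columns and 292, 199, 285 and 196 in the Oli_ISR columns. Every tunicamycin library was above every naive library (0.64, SE 0.15, edgeR adjusted p = 0.00037), and every library of the Oligo columns was above all others. The Oligo columns were higher than the Oli_ISR columns (0.54, SE 0.13, edgeR adjusted p = 0.0021), in which mice 2 and 5 were lower than mice 1 and 4. Of the endothelial markers, *Tek* was at or under 0.0282 CPM and *Cdh5* at or under 0.572 CPM in every group mean. *Pecam1* was at 10.9 CPM in naive cells, 32.2 with IL-4/IL-13 and 2.01 with tunicamycin, and *Kdr* at 9.90, 1.03 and 3.90 CPM. With Sal003, in the Oligo and in the Oli_ISR columns, *Pecam1* was at 6.39, 2.40 and 6.43 CPM and *Kdr* at 10.9, 15.6 and 11.9 CPM.

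*Adamtsl5*, a secreted ADAMTS-like protein of the extracellular matrix, stood at 9.66, 11.6, 10.1 and 9.42 CPM in naive cells, 33.4, 35.2, 31.3 and 33.6 with IL-4/IL-13 and 16.3, 13.2, 14.6 and 12.9 with tunicamycin. It stood at 38.6, 32.4, 36.8 and 29.1 with Sal003, 56.8, 53.6, 59.8 and 56.1 in the Oligo columns and 35.9, 37.6, 41.0 and 38.5 in the Oli_ISR columns. All libraries of the Oligo columns were above those of the other groups, and the rise was 0.45, SE 0.08, edgeR adjusted p = 3.9e-05 against the Oli_ISR columns. Tunicamycin libraries were all above naive ones (0.44, SE 0.10, edgeR adjusted p = 0.00022). Among the remaining secretory genes, *Oit3* (-1.02, SE 0.12, edgeR adjusted p = 4.3e-08) and *Pcyox1l* (-0.99, SE 0.10, edgeR adjusted p = 3.2e-09) were lower with tunicamycin than in naive cells. *Cst7*, which encodes the protease inhibitor cystatin F, was higher (1.41, SE 0.32, edgeR adjusted p = 0.00033), as was the secreted phospholipase *Pla2g5* (2.00, SE 0.40, edgeR adjusted p = 9.2e-05). Both are at low levels, with naive means of 0.518 ± 0.196 and 0.159 ± 0.102 CPM (SD, n = 4).

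The signalling genes included inhibitors of cytokine and antigen receptor signalling. *Socs1*, whose upstream matches are shown above, had group means of 3.68 ± 0.967 CPM (SD, n = 4) in naive cells, 64.5 ± 8.02 with IL-4/IL-13 and 4.32 ± 0.422 with tunicamycin. Its means were 71.1 ± 5.94 with Sal003, 74.0 ± 4.30 in the Oligo columns and 60.2 ± 8.34 in the Oli_ISR columns. The naive and tunicamycin libraries overlapped (0.20, SE 0.18, edgeR adjusted p = 0.3). No comparison among the kept groups was called in the main fit. Sal003 against the Oli_ISR columns had an edgeR adjusted p of 0.0191 with mouse as a replicate block. It was 0.0138 with no filter on low counts, 0.0422 without mouse 2 and 0.0419 with DESeq2. The Oligo against Oli_ISR difference had an edgeR adjusted p of 0.0373 without mouse 5 and 0.0154 without scaling. *Dusp4*, a nuclear phosphatase of MAP kinases, had means of 13.6 ± 4.29 in naive cells, 73.5 ± 3.48 with IL-4/IL-13, 7.34 ± 1.36 with tunicamycin, 145 ± 10.4 with Sal003, 194 ± 8.38 in the Oligo columns and 165 ± 10.2 in the Oli_ISR columns. It was lower with tunicamycin than in naive cells (-0.93, SE 0.14, edgeR adjusted p = 2.5e-06).

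*Cblb* encodes a ubiquitin ligase that restrains immune receptor signalling. Its libraries were 64.4, 49.5, 65.8 and 63.3 CPM in naive cells, 253, 231, 244 and 236 with IL-4/IL-13 and 96.2, 89.8, 96.6 and 94.2 with tunicamycin. The other inhibitors gave 268, 250.2, 259 and 256 (Sal003), 396, 376, 399 and 366 (Oligo columns) and 328, 314, 348 and 313 (Oli_ISR columns). All tunicamycin libraries were above all naive libraries (0.59, SE 0.06, edgeR adjusted p = 8.7e-09). *Cblb* was the member called lower with Sal003 than in both oligomycin groups (-0.43, SE 0.06, edgeR adjusted p = 1.6e-06 for Oligo and -0.31, SE 0.06, edgeR adjusted p = 0.00064 for Oli_ISR). The Oligo against Oli_ISR difference was 0.12, SE 0.06, edgeR adjusted p = 0.11 and had an adjusted p of 0.0269 with mouse as a replicate block, 0.0208 with upper-quartile scaling and 0.00208 without scaling.

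*Fyn* encodes a Src-family tyrosine kinase. CPM were 60.1, 52.4, 55.5 and 59.1 in naive cells, 201, 196, 182 and 195 with IL-4/IL-13 and 96.8, 88.0, 95.3 and 91.9 with tunicamycin. They were 152, 156, 154 and 156 with Sal003, 177, 176, 173 and 173 in the Oligo columns and 184, 180.3, 164 and 174 in the Oli_ISR columns. *Fyn* kept the largest share of its level with tunicamycin, 0.482 times, and its Sal003 ratio of 0.8004 was the nearest to the limit. Tunicamycin libraries were all above naive libraries (0.67, SE 0.04, edgeR adjusted p = 3.1e-13).

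*Bcar3* encodes an adaptor that binds the docking protein p130Cas. Its libraries gave 27.2, 24.4, 26.7 and 26.8 CPM in naive cells, 114, 111, 109 and 110.2 with IL-4/IL-13 and 23.0, 17.7, 26.1 and 20.6 with tunicamycin. They gave 141, 138, 134 and 134 with Sal003, 162, 158, 144 and 155 in the Oligo columns and 149, 146, 141 and 148 in the Oli_ISR columns. All naive libraries but that of mouse 2 were above all tunicamycin libraries (-0.31, SE 0.07, edgeR adjusted p = 0.00046), and all kept libraries were above the IL-4/IL-13 libraries. *Niban2*, a protein with a pleckstrin homology domain, was at 373, 379, 374 and 385 CPM in naive cells, 1058, 1054, 1057 and 1070.5 with IL-4/IL-13 and 244, 233, 240.0 and 248 with tunicamycin. It was at 1175, 1104, 1180.3 and 1021 with Sal003, 1199, 1155, 1165 and 1134 in the Oligo columns and 1419, 1239, 1329.7 and 1257 in the Oli_ISR columns. Tunicamycin libraries were all below naive libraries (-0.69, SE 0.05, edgeR adjusted p = 2.7e-12), and the Oli_ISR columns were above the Oligo columns in every library (Oligo over Oli_ISR -0.29, SE 0.05, edgeR adjusted p = 2.7e-05). *Gng11*, a G protein gamma subunit, was lower with tunicamycin than in naive cells (-0.61, SE 0.18, edgeR adjusted p = 0.0046), and the kinase gene *Sbk2* was not called (0.25, SE 0.23, edgeR adjusted p = 0.41).

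*Anxa4* encodes annexin A4, which binds membrane phospholipids with calcium. Libraries held 378, 365, 375 and 377 CPM in naive cells, 1634, 1585, 1553 and 1581 with IL-4/IL-13 and 549, 495, 548 and 514 with tunicamycin. They held 1439, 1349.9, 1391 and 1342 with Sal003, 1601, 1559.6, 1570.3 and 1543 in the Oligo columns and 1559.8, 1418, 1526 and 1380.1 in the Oli_ISR columns. Tunicamycin libraries were all above naive ones (0.45, SE 0.04, edgeR adjusted p = 1.8e-09), and none of the 3 comparisons among the kept groups was called. Of the 31-base words of *Anxa4*, 33.9% lie in the long noncoding RNA *Gm44036* on the opposite strand. *AA467197* encodes the small protein NMES1 and hosts the microRNA gene *Mir147*. Its libraries held 1.06, 1.74, 0.898 and 1.43 CPM in naive cells, 11.5, 9.60, 10.6 and 8.81 with IL-4/IL-13 and 4.04, 3.10, 4.47 and 3.30 with tunicamycin. They held 10.9, 9.91, 7.31 and 13.7 with Sal003, 26.5, 27.8, 21.6 and 26.2 in the Oligo columns and 10.0, 12.2, 9.51 and 10.7 in the Oli_ISR columns. Every tunicamycin library was above every naive library (1.495, SE 0.23, edgeR adjusted p = 1.8e-06). The 4 libraries of the Oligo columns were above all others, and this was the member with the largest difference between the oligomycin groups (1.15, SE 0.14, edgeR adjusted p = 2.3e-07), with a like difference of Sal003 from the Oligo columns (-1.14, SE 0.14, edgeR adjusted p = 1.6e-07). *Pkp2*, which encodes the desmosome protein plakophilin 2, was higher with tunicamycin than in naive cells (1.205, SE 0.23, edgeR adjusted p = 4.4e-05) at a low level of 3.89 ± 0.752 CPM (SD, n = 4) with IL-4/IL-13.

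Of the noncoding members, *Gm36496* is a long noncoding RNA. Its libraries were at 0.805, 1.07, 0.950 and 0.356 CPM in naive cells, 8.86, 8.68, 8.78 and 8.01 with IL-4/IL-13 and 0.270, 0.492, 0.174 and 0.160 with tunicamycin. They were at 8.33, 7.07, 6.57 and 7.59 with Sal003, 8.71, 7.66, 7.35 and 6.92 in the Oligo columns and 8.05, 8.07, 8.37 and 7.78 in the Oli_ISR columns. Naive and tunicamycin libraries overlapped (-1.51, SE 0.32, edgeR adjusted p = 0.00015), and 37.9% of its exon length is overlapped on the opposite strand by *Gm36287*. *Dnmt3aos*, transcribed opposite to the DNA methyltransferase gene *Dnmt3a*, was lower with tunicamycin than in naive cells (-0.85, SE 0.15, edgeR adjusted p = 1.5e-05). The pseudogene *Gm5345* lies 7367 bases from *Slc7a2* on chromosome 8, on the other strand. Its counts are uncertain, since 97.2% of its 31-base words occur in other genes and its exons are covered by those of *Gm64932* on the same strand. It had means of 1.12 ± 0.384 CPM (SD, n = 4) in naive cells, 15.8 ± 1.13 with IL-4/IL-13 and 1.12 ± 0.238 with tunicamycin.

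**Figure D3:**
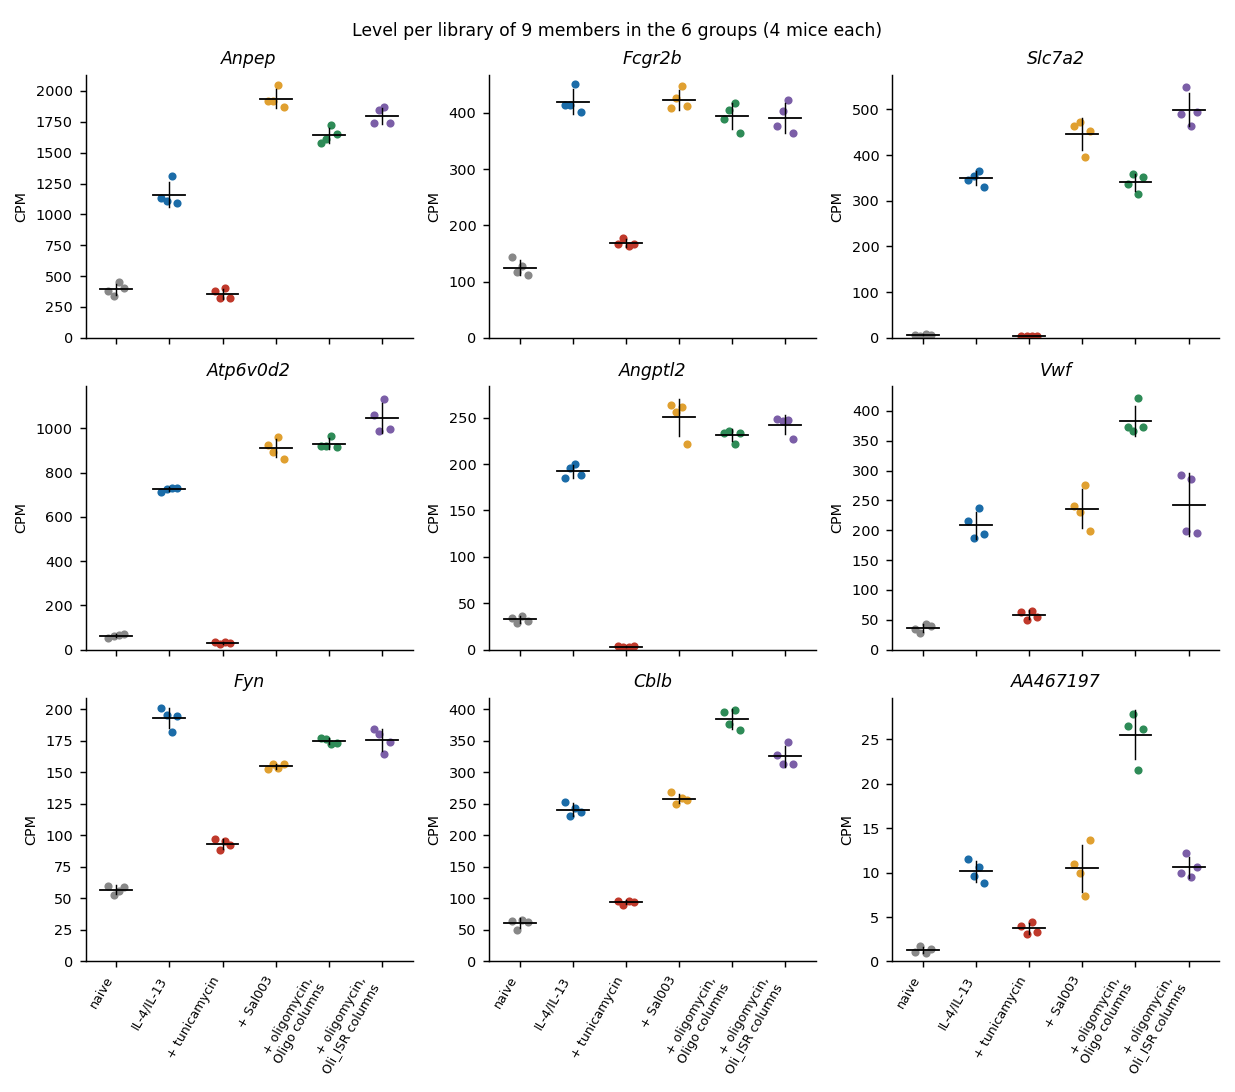
CPM of 9 of the 36 genes in each of the 24 libraries, by group (points, 4 mice; horizontal lines, group mean; vertical lines, 1 SD), each panel on its own axis starting at 0. Tunicamycin libraries of *Slc7a2*, *Atp6v0d2* and *Angptl2* lie under the naive libraries, those of *Fcgr2b*, *Vwf*, *Fyn*, *Cblb* and *AA467197* lie above them, and those of *Anpep* overlap them.

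The 3 groups in which the members were kept were compared with each other. The choice had put the same lower limit, 0.8 times the IL-4/IL-13 level, under each of them, which bounds how far the members could differ, so that their shares and medians are a description. In the Oligo against the Oli_ISR columns, 14 of the 36 genes were lower and 6 higher. Of all genes tested, 21.3% were lower and 19.9% higher, and of the members 38.9% and 16.7%. The median log2 fold change of the members was -0.14, against -0.0020 over all genes tested and -0.37 over the other 550 induced genes, of which 257 were lower and 59 higher. Without scaling of library sizes the split was 7 lower and 8 higher. This setting raised the log2 fold change of the median gene by 0.12. The 14 genes that were lower included *Slc7a2*, *Gask1b*, *Fam20c*, *Tmem268* and *Anpep*, and the 6 that were higher were *AA467197*, *Vwf*, *Pla2g5*, *Tmem151a*, *Adamtsl5* and *Sbk2*. Of the 6, *Pla2g5* was not called without mouse 1, 2 or 4 (adjusted p = 0.158, 0.136 and 0.208), with DESeq2 (0.0602) or with no filter on low counts (0.0568). *Sbk2* was not called without mouse 2 or 4 (adjusted p = 0.0521 and 0.136), nor *Tmem151a* without mouse 4 (0.0556). Only *AA467197* differed by 2-fold or more. The membrane genes split into 7 lower, 1 higher and 5 not called and the secretory genes into 4, 3 and 2. Without mouse 1 the number lower was 9, and without mouse 4 the number higher was 3. Shares over all genes tested were not counted in these settings or without scaling. Neutrophil markers summed to 2.85 to 4.83 CPM in the Oligo and 17.95 to 23.9 CPM in the Oli_ISR columns, and macrophage markers to 9527 to 10175 and 13347 to 15011 CPM. Their part in these differences was not tested.

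Between Sal003 and the Oligo columns, 8 of the 36 genes were lower with Sal003 and 10 were higher. Over all genes tested these shares were 25.1% and 26.4%, and those of the members 22.2% and 27.8%. Unscaled libraries gave 14 lower and 5 higher and moved the median gene by -0.14. At least 2-fold, *Gask1b* was higher with Sal003 and *AA467197* lower. All 9 secretory genes were called, 6 higher and 3 lower with Sal003. Without scaling, the calls of *Angptl2*, *Pcyox1l*, *Fam20c* and *Cst7* were lost (edgeR adjusted p = 0.1, 0.186, 0.0941 and 0.128). *Cst7* was also not called without mouse 1 or 5 (edgeR adjusted p = 0.0568 and 0.339), nor *Pcyox1l* without mouse 2 (0.0571). Between Sal003 and the Oli_ISR columns, 7 members were lower with Sal003, against 9.74% of all genes tested, and 2 were higher, against 8.77%. The members' shares were 19.4% and 5.56%. The 7 were *Tmem202*, *Mrgpre*, *Dnmt3aos*, *Cblb*, *Flrt2*, *Niban2* and *Fyn*, with log2 fold changes from -0.42 to -0.16, and the 2 were *Gask1b* and *Cst7*, the latter not called without mouse 5 (adjusted p = 0.0664). Without mouse 1 only 2 of the 36 genes were called lower, and without mouse 5 only 1 was called higher. Across the 3 comparisons, 8 members were called in none and 1 (*Gask1b*) in all. These counts, those in other settings and the differences of at least 2-fold among the kept groups were not counted over all genes tested. They only describe the members. A missed threshold does not show that levels were equal, and these comparisons share their groups pairwise.

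**Figure D4:**
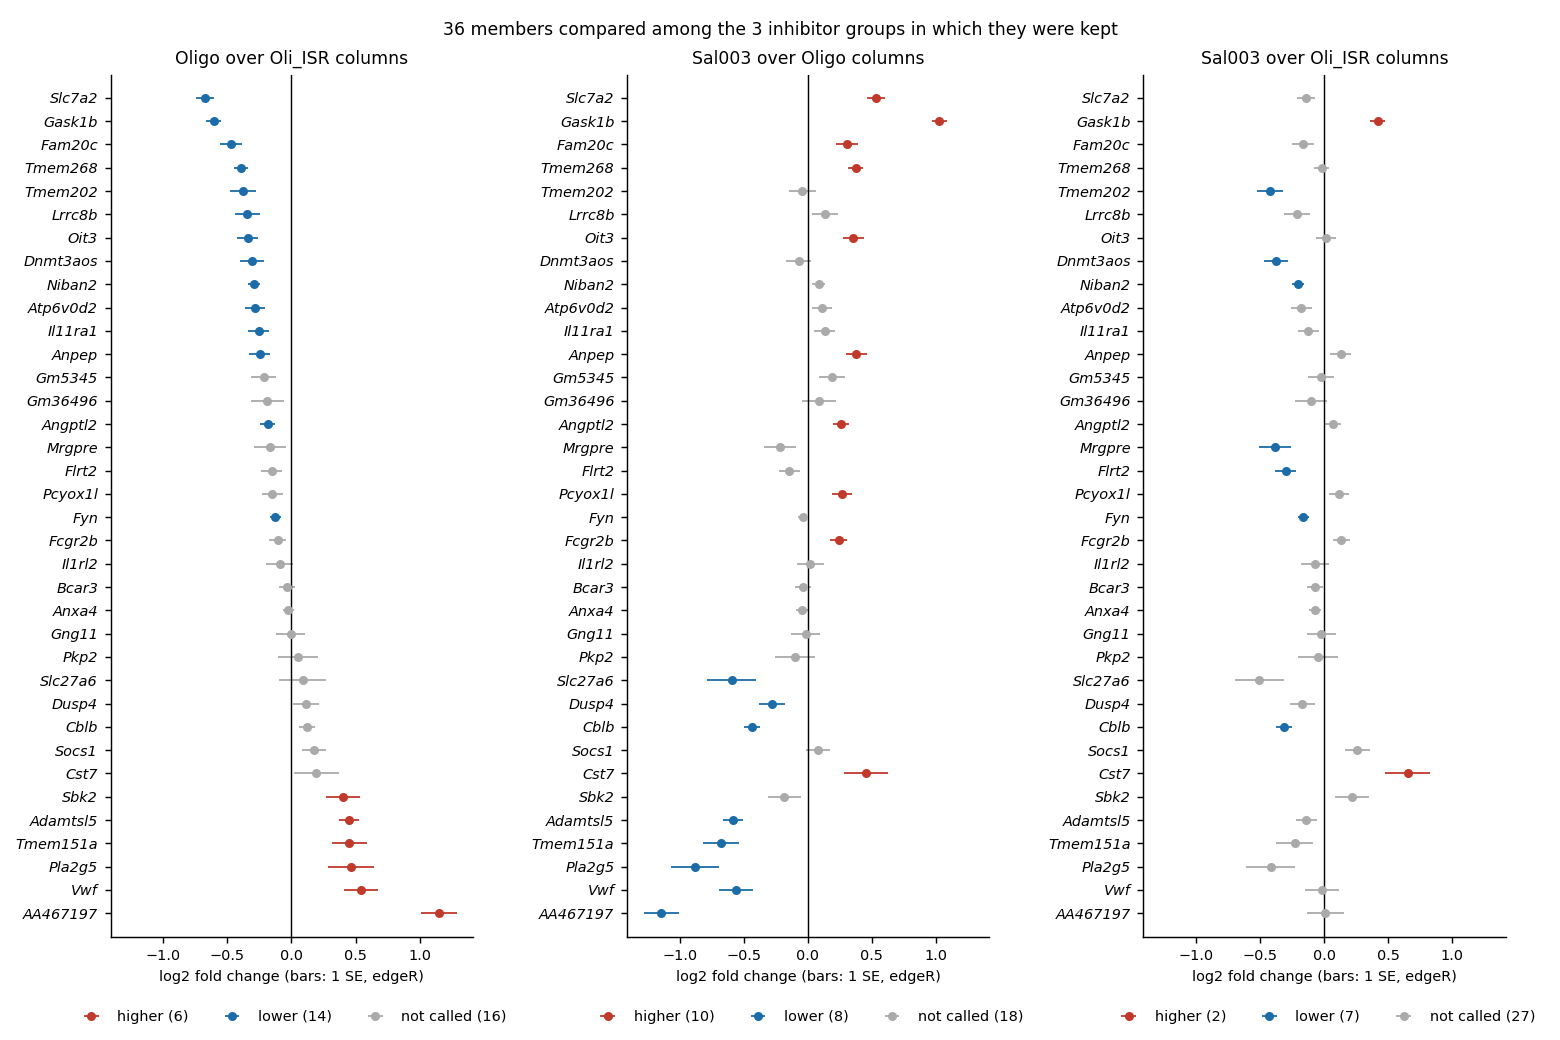
Log2 fold changes of the 36 genes between the 3 inhibitor groups in which they were kept (points, edgeR estimate over 4 mice per group; bars, 1 SE), in the order of the Oligo against Oli_ISR difference and coloured by call at an adjusted p of 0.05. Most points lie within 0.5 of 0, and *AA467197* lies at 1.15 in the left panel and at -1.14 in the middle panel.

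Lists of genes of the pathways were read beside the members in the comparison of tunicamycin with naive cells. The counts stand beside 40.5% lower and 37.1% higher of all genes tested. Of 14 tested genes of IL-4 receptor signalling, 5 were lower and 4 higher, no larger a share than over all genes. *Stat6* was lower (log2 fold change -0.61) and *Jak2* higher (1.53), and *Il4ra* was not called (-0.07, adjusted p = 0.24). The member *Socs1* is in this list and was not called. Of 12 markers of IL-4/IL-13 activation, 8 were lower and 1, *Klf4*, was higher. Among the 8 were *Mrc1* and *Pdcd1lg2*, which met the rule for the members and were left out by name. All 21 tested genes of ER chaperones and the unfolded protein response were higher, with a median log2 fold change of 3.15. Of 21 genes of N-linked glycosylation 20 were higher and 1 lower, with a median of 1.76, and all 8 ISR genes, which include *Atf4*, *Ddit3* and *Asns*, were higher, with a median of 3.84. Of 20 proliferation genes, 17 were lower and 2 higher. In the Oligo against the Oli_ISR columns, where 21.3% of all genes tested were lower and 19.9% higher, 7 of the 8 ISR genes were higher and 0 lower, and 8 of the 12 activation markers were lower and 2 higher. Sal003 had 8 of the 8 ISR genes lower than the Oligo columns and 7 lower than the Oli_ISR columns, against 25.1% and 9.74% of all genes tested.

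The choice was repeated with 3 of the 4 mice and read in the mouse left out. It gave 34, 36, 35 and 38 genes without mouse 1, 2, 4 and 5, and 28, 30, 30 and 28 of these met every criterion in the mouse that had not been used. Of the 36 genes, 31 were chosen whichever mouse was left out. In single mice, 22 met every criterion in each of the 4, 8 in 3 of the 4 and 6 in 2 or fewer. The tunicamycin ratio alone was at or under 0.5 in each mouse for 32 genes. The members just inside the limits were *Pla2g5*, *Sbk2* and *Cst7* for the level (2.05, 2.05 and 3.36 CPM), *Pcyox1l*, *Gng11* and *Niban2* for the induction ratio (2.58, 2.58 and 2.81) and *Fyn*, *Tmem268* and *Cst7* for tunicamycin (0.482, 0.462 and 0.435). Just outside were *Gm4610*, *Phospho1* and *Cldn11* for the level (1.74, 1.72 and 1.23 CPM), *Tmem144*, *Ctsk* and *Fzd7* for induction (2.48, 2.45 and 2.36), and *Prps1*, *Cd36* and *Ap2m1* for tunicamycin (0.549, 0.575 and 0.741). For the kept groups, *Fyn*, *Il1rl2* and *Lrrc8b* were just inside with Sal003 (0.8004, 0.842 and 0.848) and *Il6st*, *Kcnd3* and *Tnfrsf12a* just outside (0.706, 0.704 and 0.700). In the Oligo columns *Tmem268*, *Gask1b* and *Pcyox1l* were just inside (0.808, 0.841 and 0.846) and *Ralgds*, *Gm36486* and *Ssc5d* just outside (0.788, 0.778 and 0.758). In the Oli_ISR columns *Pcyox1l*, *Il1rl2* and *Fyn* were just inside (0.863, 0.899 and 0.909), and *Il7* (0.728) was the 1 gene that only this limit kept out.

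All 36 genes were found in the annotation, 33 of them protein-coding, spread over 14 chromosomes with at most 4 on any chromosome. The closest protein-coding members were *Niban2* (chr2:32766126-32815266) and *Angptl2* (chr2:33105946-33138252), both on the plus strand of GRCm39 and 290680 bases apart. *Slc7a2* lies at chr8:41315431-41375345 on the plus strand, *Socs1* at chr16:10600104-10603875 on the minus strand and *Atp6v0d2* at chr4:19876838-19922614 on the minus strand. Whether strand was used in counting is not given in the sources used here, so reads of overlapping genes on opposite strands may have been counted together or lost. Exons of 20 members are overlapped by exons of a gene on the opposite strand and those of 2 on the same strand, and for 8 members at least 10% of the 31-base words of the canonical transcript occur in other genes. The median exon length of the members was 4948.5 bases, against 5892.5 bases for all genes tested.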

How the data were processed

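RNA of 24 libraries, 6 groups of the same 4 mice, was sequenced from Watchmaker mRNA libraries. After trimming (Cutadapt 1.8) and removal of ribosomal and low-complexity sequence, the authors aligned the reads to GRCm39 with STAR 2.7, and the deposited values are raw counts per gene from htseq-count 0.9.1. Rows that name no gene took 12.7% to 15.2% of the counts and were left out. A deposited table of TPM values (RSEM 1.2.31) was not used, because its header names do not match its number of columns. Groups and mice were taken from the labels.

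CPM were counts over the column sum of gene rows, with no further scaling. The members and gene lists were chosen with earlier results of these data known. All 24 libraries entered 1 edgeR model (version 4.0.16, R 4.3.3), which had 1 term for each group, TMM scaling, the filterByExpr filter on low counts and quasi-likelihood tests. The 13679 genes tested included all 36 members. Benjamini-Hochberg adjustment covered all of them, and a gene was called at an adjusted p under 0.05 with no minimum fold change. The fit was tested on simulated data. Libraries of a group differed beyond sampling noise, at a mean chi-square per gene of 2.19 to 35.9, so each counted as its own sample. Equal numbers mark the same mouse. Their deviations from group means correlated within a mouse (median 0.236, over 0.1 in 56 of 60 pairs) more than between mice (median -0.0543, over 0.1 in 7 of 180 pairs). The study states no block, so mouse as a replicate block was an alternative, as were DESeq2 1.42.0, upper-quartile scaling, other filters, only the groups compared and leaving out each mouse. Unscaled libraries were added after seeing the data.

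Values in every library are given for the 15 members with the highest mean CPM with IL-4/IL-13. They are also given for the 4 members with the lowest and the 4 with the highest called fold change between tunicamycin and naive cells, and for the 3 highest and 3 lowest between the oligomycin groups, among those with at least 5 CPM with IL-4/IL-13. Coordinates, exons and transcripts are from GENCODE release M39, a later annotation of the same build than the one used for counting, in which 56323 gene identifiers of the table were found. Shared sequence was measured as the percent of 31-base words of the canonical transcript that occur in transcripts of other genes on either strand.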

Additional observations from a re-analysis of the deposited data

Results flagged for a closer look

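Among the 108 sets of 4 libraries behind the 18 members given in every library, 11 held a library far from the other 3, where the gap to the nearest took more of the range than Dixon's 95% limit for 4 samples. Chance alone gives about 1 in 20 such sets. Mouse 2 held 5 of the 11, mouse 4 held 5 and mouse 5 held 1. In naive cells mouse 2 was lowest for *Cblb* (49.5 CPM, the others 63.3 to 65.8), *Flrt2* (11.4 CPM, the others 17.6 to 18.7) and *Bcar3* (24.4 CPM, the others 26.7 to 27.2), and highest for *Il11ra1* (27.4 CPM, the others 19.9 to 21.1). In the Oligo columns mouse 2 was highest for *Flrt2* (203.7 CPM, the others 189 to 191). Mouse 4 was highest in these columns for *Atp6v0d2* (966 CPM, the others 914 to 922) and *Vwf* (421 CPM, the others 366 to 373) and lowest for *Angptl2* (222 CPM, the others 234 to 235). Mouse 4 was also highest for *Fam20c* with IL-4/IL-13 (739 CPM, the others 658 to 671) and lowest for *Il11ra1* with tunicamycin (20.3 CPM, the others 21.0 to 21.1). In the Oli_ISR columns mouse 5 was lowest for *Angptl2* (227 CPM, the others 246 to 248).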

How the results depend on the processing

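Leaving out each mouse in turn, 9 to 11 members were lower and 3 to 7 higher in the Oligo than in the Oli_ISR columns (14 and 6 with all mice), with the lowest numbers without mouse 1 and mouse 4. For Sal003 against the Oli_ISR columns 2 to 7 were lower and 1 to 3 higher (7 and 2), with the lowest without mouse 1 and mouse 5. Unscaled libraries, which moved the median gene by 0.12 and -0.14 on the log2 scale, gave 7 lower between the oligomycin groups, and 14 lower and 5 higher for Sal003 against the Oligo columns. A minimum of 10 counts in every library, with fewer genes tested, left 1 higher for Sal003 against the Oli_ISR columns. A kept ratio of at least 1 in place of 0.8 left 21 of the 36 members, and leaving out a mouse gave 34 to 38. With mouse as a replicate block, 14 members were lower and 13 higher in tunicamycin against naive cells, 15 and 7 in Oligo against Oli_ISR columns, 9 and 10 in Sal003 against Oligo columns, and 9 and 3 in Sal003 against Oli_ISR columns. The block lost no call of a member. The number of members called kept within 1.5 times in all other settings run, for tunicamycin against naive cells at 12 to 15 lower and 9 to 14 higher. Over the 18 members given in every library 748 values kept their side of the threshold, 26 lost and 13 gained a call. No value called in the main fit or in the alternative changed direction, and direction was not checked for values called in neither. Shares over all genes tested were not counted in these settings, so the numbers called there only describe the members. The causes were not tested. Between 4 mice, small differences of genes at a few CPM are the least certain.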
